A study of Mus musculus with 4 samples.

Results

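The chaperones and folding enzymes of the endoplasmic reticulum were described in induced hepatocyte-like (iHep) cells of the mouse. The 10 genes were given by name (Hspa5, Hsp90b1, Calr, Canx, Pdia3, Pdia4, Pdia6, Dnajb9, Dnajc3 and Sdf2l1), and every probe whose gene name in the array files was one of these names, or an older alias, was taken. All 10 genes were found, among 27975 gene names on the arrays, with 22 of 41174 probes. Dnajc3 is called Dnajc3a in the files. The cells were of strain C57BL/6 and, per the labels, derived from cells named MDFs, an abbreviation the labels do not explain, and they were grown in 3D or in 2D culture. They came from 2 experiments described as independent, iHep-2 and iHep-1, and each gave 1 array per culture, so each culture has 2 arrays and there are 4 in all. A plus sign of unstated meaning stands in each 2D title and in no 3D title, and what it marks cannot be told apart from the culture. The labels give neither the inducing factors, the promoter that drives them, the age of the cultures nor whether an experiment is 1 clone.

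Secreted and membrane proteins enter the endoplasmic reticulum unfolded. There BiP and GRP94 bind exposed hydrophobic stretches, calreticulin and calnexin hold newly made glycoproteins by their sugars, and protein disulfide isomerases form and rearrange disulfide bonds. Hepatocytes are professional secretory cells that release albumin, apolipoproteins and clotting factors, and they carry a large reticulum. When unfolded proteins build up, the unfolded protein response raises many of these genes together, in part through the transcription factors ATF6 and XBP1.

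A sequence tied to that response was looked for in the promoters, as letters only and not as a measured binding site. The endoplasmic reticulum stress response element (ERSE), at which ATF6 acts together with the CCAAT-binding factor NF-Y, was searched as CCAAT, any 9 bases and CCACG, on both strands, from 250 bases before to 50 bases after each gene's start in the RefSeq promoter table (build GRCm38.p6). It was found for 6 of the 10 chaperone genes, and in 39 of all 32851 promoters, which is 0.119%. The response is known to raise many of these genes, so these counts are a description and not a test. The matches are shown because they are what these 6 genes share in sequence; capitals mark the element, read 5′ to 3′ on the strand of the gene, and where the element lies on the other strand the capitals read as its reverse complement, starting with CGTGG. For Hspa5 the whole stretch of 250 bases before the start is given (chr2:34771840-34772089, plus strand), and for the others a window of 43 bases.
Hspa5: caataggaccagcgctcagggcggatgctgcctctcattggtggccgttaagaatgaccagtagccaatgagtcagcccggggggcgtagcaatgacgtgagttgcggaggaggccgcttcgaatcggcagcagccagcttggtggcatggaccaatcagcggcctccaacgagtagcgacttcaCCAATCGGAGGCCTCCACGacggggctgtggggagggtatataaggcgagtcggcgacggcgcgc
Hsp90b1, chr10:86705626-86705668, minus strand: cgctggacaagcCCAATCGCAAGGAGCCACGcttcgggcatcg
Hsp90b1, chr10:86705521-86705563, minus strand: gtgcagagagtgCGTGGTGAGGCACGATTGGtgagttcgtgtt
Calr, chr8:84847063-84847105, minus strand: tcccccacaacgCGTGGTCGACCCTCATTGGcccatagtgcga
Canx, chr11:50325788-50325830, minus strand: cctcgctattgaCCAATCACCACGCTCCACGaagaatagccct
Pdia6, chr12:17266479-17266521, plus strand: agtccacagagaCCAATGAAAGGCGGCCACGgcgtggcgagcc
Dnajc3, chr14:118937815-118937857, plus strand: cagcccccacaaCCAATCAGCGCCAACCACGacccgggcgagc

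Hsp90b1 held 2 copies in opposite orientations, and the first base of the elements lay between 65 bases (Hspa5) and 212 bases (Hsp90b1) before the start. The letters were not found in the windows of Pdia3, Pdia4, Dnajb9 and Sdf2l1. A related element, ERSE-II (ATTGG, any 1 base and CCACG, 0.0365% of promoters), and an XBP1 element searched as TGACGTGG (0.676% of promoters) were found at none of the 10 genes. Only these exact letters were searched, for the ERSE too, so variants that differ by a base were not counted. Among the other genes of the secretory pathway described below, the ERSE letters were found at Creld2, Ero1b, Derl3, Syvn1 and Alg12, with 139 of 177 listed genes searched.

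The arrays measured 1 colour of fluorescence, and each had 24410 to 25878 spots well above background and no saturated spot. The level used below is the log2 of a probe's processed signal minus that of the array's 75th percentile, so it is relative to the other genes of the same array and is not comparable between probes. All 22 chaperone probes were well above background on all 4 arrays, and all 10 genes passed the filter into the fit of 16451 genes. In these bulk samples, fewer cells of a type and less RNA per cell cannot be told apart. The hepatocyte markers on the arrays, 11 of 12 listed, were well above background on every array. Their summed level was 3397 (iHep-2) and 1715 (iHep-1) times the 75th percentile in 3D culture, and 1461 (iHep-2) and 1890 (iHep-1) times in 2D culture. Sums of this kind, here and for the markers below, weigh the brightest probes most. Gene by gene, the median difference of the 11, 3D minus 2D, was 1.64 in iHep-2 and 0.36 in iHep-1. On this scale 6 were higher in 3D culture in both experiments (33.3% of all genes) and 0 lower (32.8%). Fibroblast markers summed to 8.17 (iHep-2) and 8.87 (iHep-1) in 3D culture and to 5.34 and 5.98 in the same experiments in 2D culture; 5 to 8 of the 12 were well above background on an array, and Dcn, Fbn1, Lum and Thy1 on none. Of 8 macrophage markers 4 or 5 were well above background on an array, of 8 endothelial markers 2 or 3, and of 8 biliary markers 6 or 7. Summed macrophage markers were at 2.28 (iHep-2) and 10.4 (iHep-1) in 3D culture and at 2.56 (iHep-2) and 6.71 (iHep-1) in 2D culture, with Itgam and Ptprc on no array. Endothelial markers were at 0.647 and 1.66 in 3D culture of these experiments and at 0.258 and 0.815 in 2D culture, with Pecam1, Kdr, Tek, Tie1 and Emcn on no array. Biliary markers were at 30.6 and 25.7 in 3D culture and at 47.0 and 16.3 in 2D culture, with Prom1 on no array. The part of these marker levels in the results below was not tested.

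The comparison of 3D with 2D culture asks how the folding machinery stood in the 2 forms of culture within each experiment. The labels do not say whether both cultures of an experiment held the same cells. On the scale of the 75th percentile all 10 chaperones stayed within 2-fold in both experiments, as did 74.3% of all genes tested, whereas after scaling to spike-in controls 10 did in iHep-2 and 1 did in iHep-1. That scaling put the median difference of all genes, 3D minus 2D, at -1.08 log2 units, with -0.49 in iHep-2 and -1.69 in iHep-1. On the scale of the 75th percentile 7 of the 10 were higher in 3D culture in both experiments, against 33.3% of all genes, but after scaling to spike-in controls none was. The 7 genes were Calr, Pdia3, Pdia4, Pdia6, Dnajb9, Dnajc3 and Sdf2l1. Canx was lower in both experiments (32.8% of all genes were), and Hspa5 and Hsp90b1 differed in opposite directions (33.8%). No chaperone passed the test: limma's adjusted p lay between 0.684 and 0.954 over the 10 genes, and 0% of all genes had an adjusted p under 0.05. The 95% confidence intervals of the ratio of 3D to 2D, from the same fit, lay between 0.574 and 2.99 over the 10 genes, so larger differences than those seen are not shut out for single genes.

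Over the 10 genes the median difference, 3D minus 2D, was 0.27 log2 units (0.29 in iHep-2, 0.24 in iHep-1), and over all genes tested it was 0.02. Levels in the 2 cultures did not overlap for 6 genes that were higher in 3D culture (20.0% of all genes) and for Canx, which was lower (21.5%). With 2 arrays against 2, an exact permutation test of a single gene cannot give a two-sided p below 0.333, and these 7 genes reached that value. Both scalings move all genes of an array together, so a gene's place relative to the median of all genes is the same under either. Of the chaperones 8 lay above that median, 7 of them in both experiments. By definition as many genes lie above a median as below it. The share of all genes above it in both experiments was not computed. The raw signals show how far scaling matters: all 22 probes were brighter in 3D culture of iHep-1, whose 75th percentile was 0.18 log2 units higher in 3D, and 19 of 22 were dimmer in 3D culture of iHep-2, whose 75th percentile was 0.63 lower (-0.63).

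**Figure D1:**
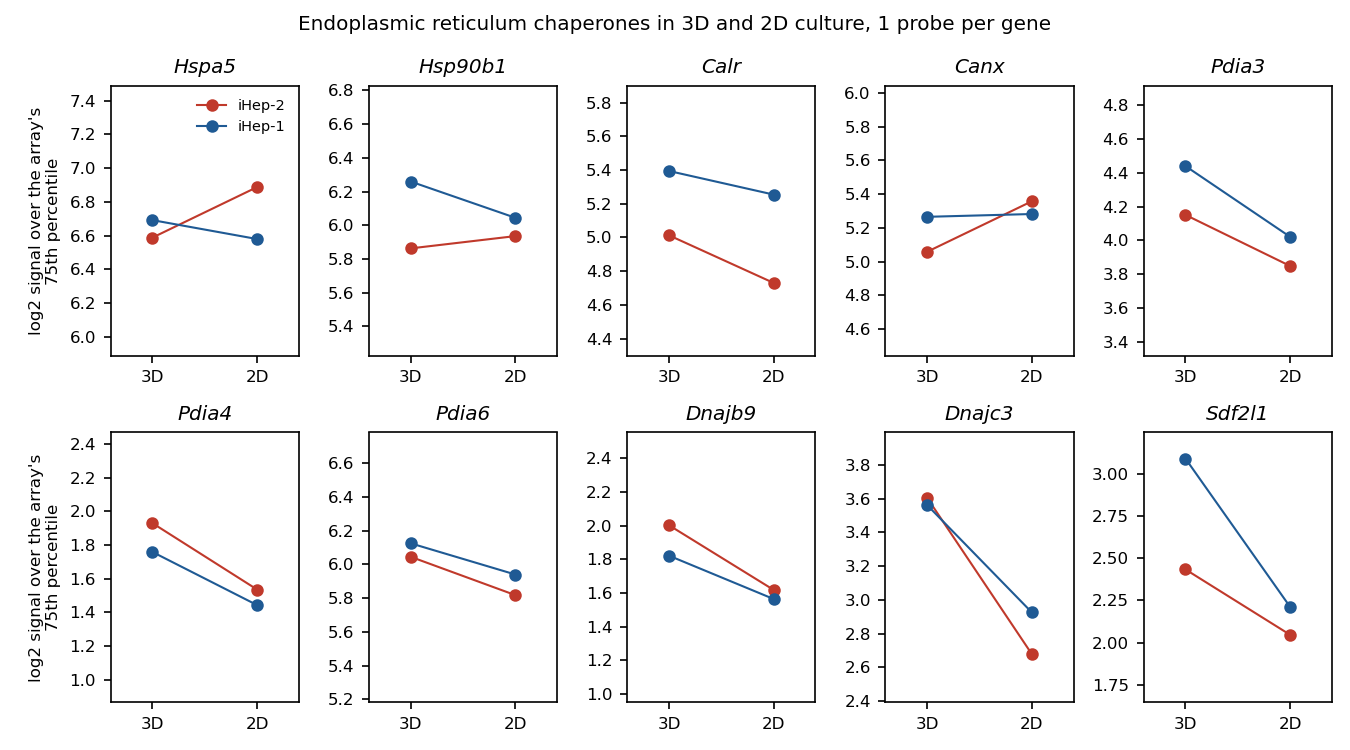
Level of each chaperone gene on the 4 arrays, as log2 of the probe's signal over the array's 75th percentile; each panel spans the same number of log2 units, points are single arrays and lines join the cultures of 1 experiment. The lines fall from 3D to 2D in both experiments for 7 genes on this scale (for none after scaling to spike-in controls), most steeply for Dnajc3 and for Sdf2l1 of iHep-1, and cross for Hspa5, Canx and Dnajc3.

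The 2 ATP-driven chaperones had mean differences near 0 on the 75th percentile scale, and of -1.19 (Hspa5) and -1.03 (Hsp90b1) after scaling to spike-in controls, close to the median of all genes on that scale. Hspa5 encodes BiP, the Hsp70 of the endoplasmic reticulum, which also holds the stress sensors inactive. Its level in 3D culture was 6.59 in iHep-2 and 6.69 in iHep-1, against 6.89 in iHep-2 and 6.58 in iHep-1 in 2D culture. The highest and the lowest of the 4 values were thus both from 2D culture, and the cultures overlapped. The difference was -0.30 in iHep-2 and 0.11 in iHep-1. Its mean was -0.09 ± 0.24 (SE, n = 2 arrays per culture; limma, adjusted p = 0.929). The 95% confidence interval of the ratio of 3D to 2D ran from 0.580 to 1.51.

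Hsp90b1 encodes GRP94, the Hsp90 of the endoplasmic reticulum, whose clients include integrins and Toll-like receptors. In 3D culture it stood at 5.86 in iHep-2 and 6.26 in iHep-1, and in 2D culture at 5.94 in iHep-2 and 6.04 in iHep-1. Both the highest and the lowest value came from 3D culture. The mean difference was 0.07 ± 0.26 (SE; adjusted p = 0.954, the highest of the 10), and the interval of the ratio was 0.627 to 1.76. Its second probe gave -0.36 in iHep-2 and 0.22 in iHep-1, again of opposite sign.

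The lectin chaperones bind sugar-bearing proteins together with the isomerase Pdia3 (ERp57). Calr encodes calreticulin, the soluble lectin. Calr had 5.01 in iHep-2 and 5.39 in iHep-1 in 3D culture, and 4.73 in iHep-2 and 5.25 in iHep-1 in 2D culture. Its level was higher in 3D culture within each experiment, by 0.28 in iHep-2 and by 0.14 in iHep-1, yet the cultures overlapped because iHep-2 was lower than iHep-1 in both. The mean difference of 0.21 ± 0.32 had an adjusted p of 0.878 (limma), and without the 2D array of iHep-2 it was -0.05.

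Canx encodes calnexin, the membrane-bound lectin, and was the gene whose level was lower in 3D culture in both experiments. It had 5.06 in iHep-2 and 5.27 in iHep-1 in 3D culture, and 5.36 in iHep-2 and 5.28 in iHep-1 in 2D culture. The difference lay almost wholly in iHep-2 (-0.30) and was -0.02 in iHep-1 (limma, adjusted p = 0.867 for the mean of -0.16). Its 2 other probes gave differences of -0.06 and -0.04 in iHep-2 and 0.15 and 0.13 in iHep-1. The 3 Canx probes therefore disagreed on the direction in iHep-1.

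Pdia3 had 4.15 in iHep-2 and 4.44 in iHep-1 in 3D culture, and 3.85 in iHep-2 and 4.02 in iHep-1 in 2D culture. Both values of 3D culture lay above both of 2D culture on this scale. The difference was 0.30 in iHep-2 and 0.42 in iHep-1, and its mean was 0.36 ± 0.24 (SE; limma, adjusted p = 0.736). On their representing probes calnexin and its partner isomerase had mean differences of opposite sign, -0.16 and 0.36, and neither passed the test. That contrast depended on the Canx probe. The 2 other Canx probes had mean differences of 0.048 and 0.047, and the mean of all Canx probes was -0.02.

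The other 2 disulfide isomerases were higher in 3D culture in both experiments on the 75th percentile scale and lower after scaling to spike-in controls. Pdia4 encodes ERp72. It had 1.93 in iHep-2 and 1.76 in iHep-1 in 3D culture, and 1.54 in iHep-2 and 1.44 in iHep-1 in 2D culture. The difference of 0.39 in iHep-2 was close to that of 0.31 in iHep-1, and the ratio of 3D to 2D had an interval of 0.825 to 1.98 (limma, adjusted p = 0.723).

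Pdia6 encodes P5, an isomerase that works with BiP. In 3D culture it was at 6.05 in iHep-2 and 6.13 in iHep-1, and in 2D culture at 5.82 in iHep-2 and 5.94 in iHep-1. These 4 values lay close together, and the mean difference was 0.21 ± 0.21 (SE; limma, adjusted p = 0.812). All 4 of its probes were higher in 3D culture in both experiments on this scale, by 0.11 to 0.50.

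**Figure D2:**
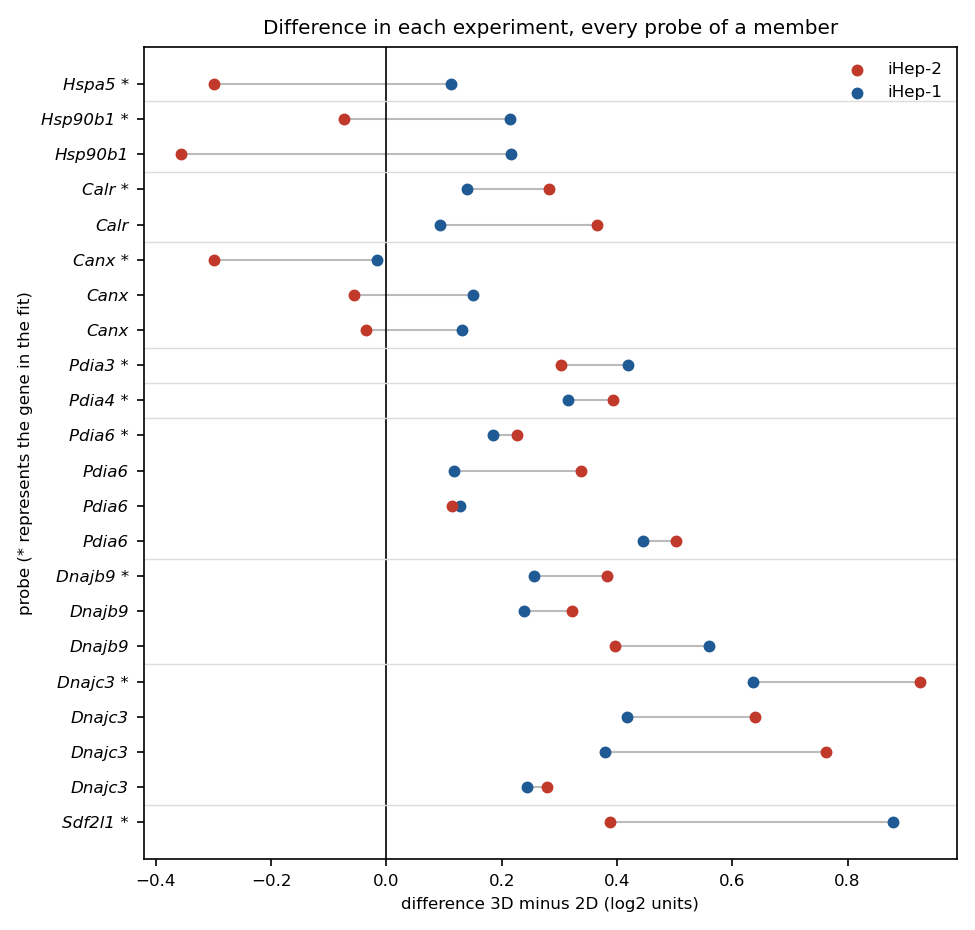
Difference 3D minus 2D in log2 units of every chaperone probe, with red points for iHep-2, blue points for iHep-1 and a grey line joining the 2; probes of a gene are ordered by mean level. On the scale of the 75th percentile 16 of 22 probes lie right of 0 in both experiments and 1 lies left in both, and the probes of Hspa5 and Hsp90b1 lie on both sides.

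The J-domain proteins, which drive the ATP cycle of BiP, included the gene with the largest difference. Dnajc3 encodes p58IPK, which delivers unfolded proteins to BiP and was first described as an inhibitor of the kinase PERK. Of its 4 probes 3 are printed as the files give them, in lower case (build mm9), the first being the one that represents the gene. The last 2 span introns, as their 60 bases cover 1505 and 1620 bases of the genome.
Dnajc3, chr14:119377251-119377310, plus strand: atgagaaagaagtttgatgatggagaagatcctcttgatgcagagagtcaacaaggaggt
Dnajc3, chr14:119374485-119375989, plus strand: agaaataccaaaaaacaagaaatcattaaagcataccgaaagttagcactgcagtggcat
Dnajc3, chr14:119370014-119371633, plus strand: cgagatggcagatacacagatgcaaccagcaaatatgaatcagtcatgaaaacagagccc

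The representing probe of Dnajc3 had 3.60 in iHep-2 and 3.56 in iHep-1 in 3D culture, and 2.68 in iHep-2 and 2.93 in iHep-1 in 2D culture. The values of 3D culture agreed closely and lay well above both of 2D culture. The ratio of 3D to 2D was 1.90 in iHep-2 and 1.55 in iHep-1, and the mean difference was 0.78 ± 0.23 log2 units (SE, n = 2 arrays per culture). Dnajc3 was the 1 chaperone with an unadjusted p under 0.05 (limma, 0.0306), and 4.07% of all genes were higher in 3D culture with such a p. Its adjusted p was 0.684, and with the experiment as a block it was 0.366. The other 3 probes were also higher in both experiments, by 0.24 to 0.76. The smallest differences, 0.28 in iHep-2 and 0.24 in iHep-1, were those of the probe not printed. The mean of all 4 probes was 0.54, with an unadjusted p of 0.137 (limma). After scaling to spike-in controls the mean difference of the representing probe was -0.32.

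Dnajb9 encodes ERdj4, a J-domain protein that turns BiP onto the sensor IRE1 and takes part in degradation. Dnajb9 stood at 2.00 in iHep-2 and 1.82 in iHep-1 in 3D culture, and at 1.62 in iHep-2 and 1.56 in iHep-1 in 2D culture. The difference was 0.38 in iHep-2 and 0.26 in iHep-1 (limma, adjusted p = 0.741), and its 3 probes gave 0.24 to 0.56.

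Sdf2l1 encodes a luminal protein that forms complexes with J-domain partners of BiP. It had 2.43 in iHep-2 and 3.09 in iHep-1 in 3D culture, and 2.05 in iHep-2 and 2.21 in iHep-1 in 2D culture. The array of 3D culture of iHep-1 stood well above the other 3, so that the 2 arrays of 3D culture had an SD of 0.46, against 0.12 in 2D culture. The difference was 0.39 in iHep-2, a ratio of 1.31, and 0.88 in iHep-1, a ratio of 1.84 (limma on the mean of 0.63, adjusted p = 0.706). Without the 3D array of iHep-1 the difference was 0.30.

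The 4 genes without an ERSE in the promoter window had differences within the range of the 6 genes with it. Genes with the element had mean differences from -0.16 (Canx) to 0.78 (Dnajc3), and 3 of the 6 were higher in 3D culture in both experiments on the 75th percentile scale. Genes without it had mean differences from 0.32 (Dnajb9) to 0.63 (Sdf2l1), and all 4 were higher in both on that scale. Of all genes tested 33.3% were higher in both. A relation of the element to the differences was not tested. After scaling to spike-in controls no gene of either set was higher in both experiments.

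The 2 experiments were also compared with each other, over both cultures. Of all genes, 54 differed between iHep-2 and iHep-1 (limma, adjusted p under 0.05), or 0.328%, and no chaperone was among them, with adjusted p from 0.615 to 0.975. The chaperones had a median difference, iHep-2 minus iHep-1, of -0.10 log2 units, against 0.00 over all genes. On their representing probes all 10 stayed within 2-fold in both cultures, as did 71.3% of all genes. The second Hsp90b1 probe did not: iHep-2 minus iHep-1 was -1.27 in 3D culture and -0.69 in 2D culture. In both cultures 5 genes were lower in iHep-2 (33.5% of all genes), 2 were higher (30.0%), and 3 differed in opposite directions (36.5%). The genes lower in iHep-2 in both cultures were Hsp90b1, Calr, Pdia3, Pdia6 and Sdf2l1, and those higher in both were Pdia4 and Dnajb9. These directions are those of the representing probes. The other Dnajb9 probes gave 0.043 and -0.24 in 3D culture and, in the same order, -0.040 and -0.074 in 2D culture.

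Calr had the largest such difference among representing probes, -0.45 ± 0.25 (SE; limma, adjusted p = 0.615). Both its values in iHep-2 lay below both in iHep-1. The same held for Hsp90b1, with -0.25 ± 0.24. These were the 2 genes whose representing probes did not overlap between experiments, and both were lower in iHep-2, as were 22.6% of all genes. No chaperone lay wholly higher in iHep-2 (19.1% of all genes). For the representing probes of Calr and Hsp90b1 the difference between experiments was larger in size than that between cultures (0.21 and 0.07). For that of Dnajc3 it was the smaller one (-0.10 against 0.78). The other Dnajc3 probes were lower in iHep-2 in both cultures, with differences from -0.58 to -0.20. For the Dnajc3 probe not printed it was -0.51 in 3D culture and -0.54 in 2D culture, against 0.26 between cultures.

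**Figure D3:**
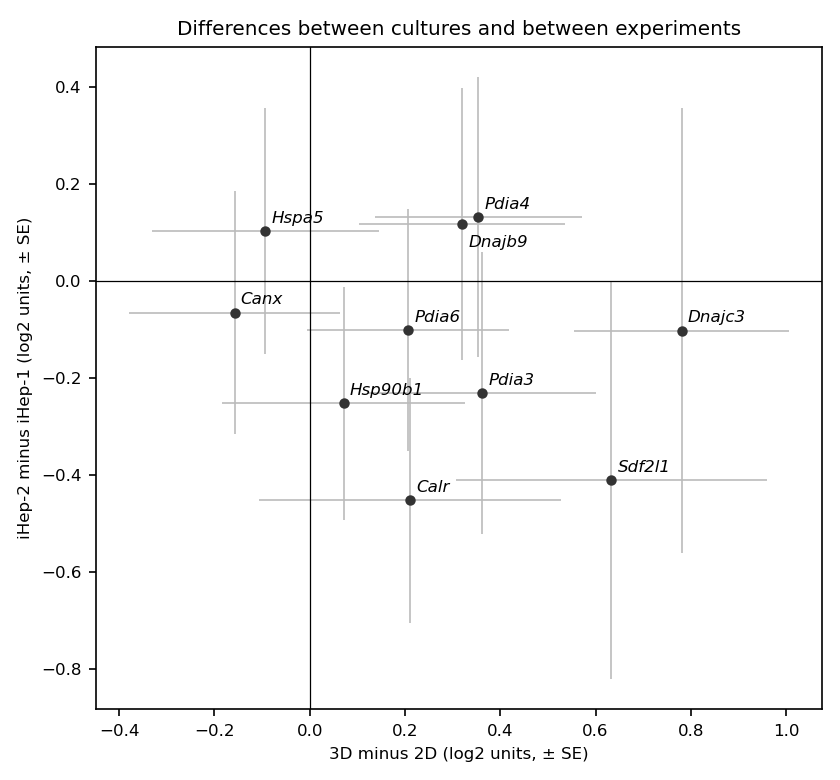
Mean difference 3D minus 2D (horizontal) and iHep-2 minus iHep-1 (vertical) of each chaperone gene in log2 units on the 75th percentile scale, with bars of 1 SE from the fit across all genes. Dnajc3 lies farthest to the right at 0.78 and Calr lowest at -0.45.

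Genes outside the set with a like pattern over the 4 arrays were sought by the Euclidean distance of their values, centred on their own mean, from the mean pattern of the 10 chaperones. That mean pattern was 0.05 in iHep-2 and 0.22 in iHep-1 in 3D culture, and -0.17 in iHep-2 and -0.09 in iHep-1 in 2D culture. The 5 closest genes were Zmym5, Alox12b, Rpn1, Uqcrc1 and Upf3b, at distances of 0.0177 to 0.0388. Rpn1 encodes a ribophorin of the complex that transfers N-glycans. The chaperones themselves lay at 0.0950 to 0.547, and 46 other genes lay closer than the closest of them, out of 16441.

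The rest of the secretory pathway was described by 8 lists, none with a gene that passed the test between 3D and 2D culture. Of 23 cofactors of BiP and other luminal folding factors, 10 were higher and 6 lower in 3D culture in both experiments, with a median of 0.00 (-0.10 to 0.28 with 1 array left out). The 3 with the smallest p were Lrpap1, the chaperone of the LDL receptor family, at -1.15 ± 0.27, Calr3, a calreticulin paralogue, at 0.95 ± 0.29, and Cdnf at 0.70 ± 0.25 (SE; limma, adjusted p = 0.684 for each). Among 20 further disulfide isomerases and oxidases 9 were higher and 6 lower in both, with a median of 0.06 (-0.03 to 0.17 with 1 array left out).

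P4hb, the founding protein disulfide isomerase, had 6.06 in iHep-2 and 5.47 in iHep-1 in 3D culture, and 5.12 in iHep-2 and 5.19 in iHep-1 in 2D culture, a mean difference of 0.61 ± 0.30 (limma, adjusted p = 0.703). Ero1a, the oxidase that recharges it, had the opposite sign: 0.84 in iHep-2 and 0.78 in iHep-1 in 3D culture, and 1.57 in iHep-2 and 1.72 in iHep-1 in 2D culture, a difference of -0.84 ± 0.21 (adjusted p = 0.684). Neither gene's cultures overlapped. Vkorc1l1, a vitamin K epoxide reductase that can also serve disulfide formation, had 0.54 ± 0.25.

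Of 16 sensors and factors of the unfolded protein response, 4 were higher and 10 lower in 3D culture in both experiments, with a median of -0.34 (-0.19 without the 3D array of iHep-1). The factors at both ends of that list had the widest differences of all 8 lists. Creb3l3 (CREBH), a liver-rich membrane-bound factor cleaved in the Golgi, had 3.01 in iHep-2 and 3.56 in iHep-1 in 3D culture, and -2.12 in iHep-2 and 0.90 in iHep-1 in 2D culture, a difference of 3.90 ± 1.17 (limma, adjusted p = 0.684). Ddit3 (CHOP), the factor tied to prolonged stress, had 0.12 in iHep-2 and -0.31 in iHep-1 in 3D culture, and 3.28 in iHep-2 and 1.56 in iHep-1 in 2D culture, a difference of -2.52 ± 0.69 (adjusted p = 0.684). Mbtps1, the protease that cleaves ATF6, had -0.84 ± 0.21.

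For Creb3l3 and Ddit3 the 3D arrays lay closer together than the 2D arrays did. Xbp1 and Atf6, which encode the factors named with the promoter element and were picked after their values were seen, had differences of 0.10 and -0.45 (limma, adjusted p = 0.929 and 0.723). Between 3D and 2D culture Ddit3 was the 1 gene of the 8 lists to pass the test under any setting tried. It had a difference of -3.62 and an adjusted p of 0.0165 (limma) after scaling to spike-in controls. In that fit limma took 1 common spread for all genes (infinite prior degrees of freedom), unlike the fit used elsewhere, with 1.58.

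Of 26 genes of degradation from the endoplasmic reticulum 13 were higher and 6 lower in both experiments (median 0.18, and 0.08 without the 2D array of iHep-2). Those with the smallest p were Derl3 at 1.16 ± 0.38, Edem1 at 0.55 ± 0.21 and Faf2 at -0.54 ± 0.22, and the other probe of Faf2 gave -0.06. Derl3 is a derlin that helps proteins out of the reticulum, Edem1 acts on misfolded glycoproteins, and Faf2 recruits the ATPase VCP. Of 25 translocon and signal peptidase genes 11 were higher and 6 lower (median 0.14, and -0.03 without the 2D array of iHep-2), with Tram1 at 0.48, Sec61b at 0.47 and Sec61g at 0.46. Of 25 genes of N-glycan transfer and the calnexin cycle 9 were higher and 8 lower. Their median was 0.02 (-0.00068 to 0.086 with 1 array left out). Ost4, a small subunit of the transferase, was at 0.73, Dpagt1 at 0.49 and Uggt2, a folding sensor, at -0.46. The 3 other probes of Uggt2 gave -0.58 to 0.07. All 9 of these genes had adjusted p above 0.68 (limma; lowest 0.684).

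Of 25 genes for export from the reticulum and retrieval 14 were higher and 2 lower in both experiments, with a median of 0.31. The median was 0.58 in iHep-2 and 0.02 in iHep-1, and it was 0.12 without the 3D array of iHep-2 and 0.11 without its 2D array. Sec16b, which marks exit sites, had 1.34 ± 0.51, Mia3, needed to export bulky cargo, 0.66 ± 0.23, and Sec24d, a COPII coat protein, 0.66 ± 0.29. Of 13 collagen-folding genes 2 were higher and 6 lower (median -0.18, but 0.08 without the 2D array of iHep-1 and -0.41 without the 3D array of iHep-1), with P4ha1 at -0.56, Plod3 at -0.28 and Tmem38b at 0.51. All directions of these lists are on the 75th percentile scale, on which the share of all genes was 33.3% higher and 32.8% lower in both experiments, and scaling to spike-in controls turned the sign of every named list gene with a positive difference except Creb3l3, Derl3 and Sec16b.

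**Figure D4:**
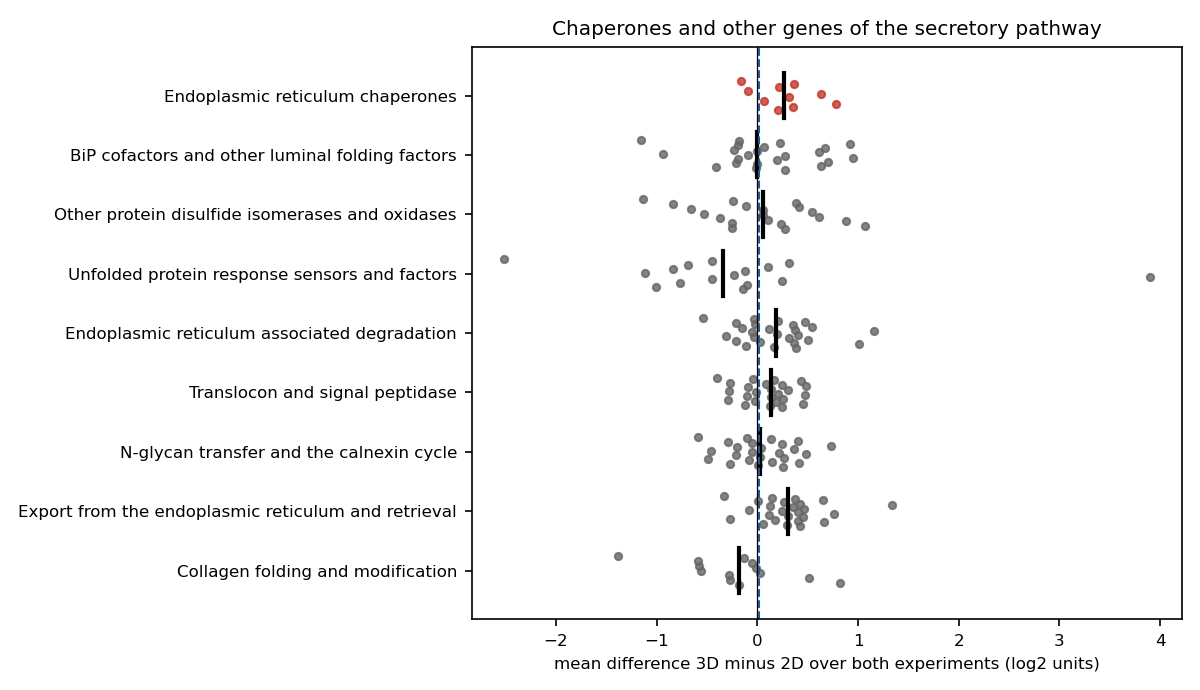
Mean difference 3D minus 2D in log2 units of each gene (points), on the 75th percentile scale, for the 10 chaperones in red and the 8 other lists of the secretory pathway in grey, with black bars for list medians and a dashed line for the median of all genes. The chaperones lie between -0.16 and 0.78 around a median of 0.27, and the list of sensors and factors runs from -2.52 (Ddit3) to 3.90 (Creb3l3).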

How the data were processed

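Expression was measured on 4 Agilent 1-colour arrays (design 014868), 2 of 3D and 2 of 2D culture. Each deposited scanner file gives the intensity of its spots on a linear scale, background-corrected by Agilent Feature Extraction (version 9.5.1.1 per the submitters' processing notes, 10.7.1.1 per the file headers). Per the file headers, all 4 arrays lay on 1 slide in 1 scan, and probe positions refer to build mm9. An intensity table deposited by the authors for the whole series served as an alternative. From the deposited intensity, log2 values were computed and each array's 75th percentile was subtracted. From 72 to 85 outlier spots per array were left out. Of 41174 probes, 24844 were named by accession, 6045 by symbol and 1810 by older symbol in a RefSeq table (build GRCm38.p6), and 8475 kept the name in the files. Probes well above background on at least 2 arrays were kept, and the probe of highest mean represents a gene. Cross-hybridisation between related genes was not tested.

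Two-sided comparisons used limma 3.58.1 (run in R 4.3.3 through lmFit and then eBayes, 2 residual and 1.58 prior degrees of freedom), with Benjamini-Hochberg adjustment over 16451 genes at 0.05. The labels describe no separation of cultures beyond the 2 experiments. In the fit without a block, p-values of 3D against 2D culture measure the spread between the 2 experiments. Those of iHep-2 against iHep-1 measure the spread between the 2 cultures. Technical spread is part of both and was not measured apart. The design text ties replicate numbers to experiments, which pairs the arrays, and deviations of same-numbered arrays correlated (r = 0.66 across genes). The fit was tested on simulated data. The members, lists and tests were chosen with earlier results of these data known. All members were named, the 3 genes of smallest p per list, and the 5 genes of most like pattern. Alternatives tried were background correction, scaling, filters, probe choice, model and leaving out each array. RefSeq sequences were searched as letters only.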

Additional observations from a re-analysis of the deposited data

Results flagged for a closer look

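Hspa5 had differences, 3D minus 2D, of opposite sign in the experiments, -0.30 in iHep-2 and 0.11 in iHep-1, and so did Hsp90b1, with -0.073 in iHep-2 and 0.21 in iHep-1. These differences between experiments were not tested, since each experiment has 1 array per culture. The medians of 4 lists also had opposite signs. They were 0.091 in iHep-2 and -0.034 in iHep-1 for the BiP cofactors and other luminal folding factors, and 0.14 in iHep-2 and -0.025 in iHep-1 for the other disulfide isomerases and oxidases. They were 0.21 in iHep-2 and -0.012 in iHep-1 for the translocon and signal peptidase, and 0.10 in iHep-2 and -0.058 in iHep-1 for N-glycan transfer and the calnexin cycle. These were not tested either. Opposite signs were found for 33.8% of all genes tested.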

How the results depend on the processing

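No chaperone passed the threshold between cultures or between experiments under any of the 13 alternatives. With normexp, quantile normalization, the authors' series table and the mean of all kept probes, 7 were higher in 3D culture in both experiments. The filters and models tried leave the chaperone values unchanged, so their count of 7 was fixed beforehand. Spike-in scaling gave 0. That scaling also gave a median chaperone difference of -0.83, 291 genes called between cultures and 1 called in the pathway lists, from a fit with infinite prior degrees of freedom in place of 1.58. Hspa5 (-1.19) and Canx (-1.26) kept their sign under it. It reversed the 3D minus 2D difference of Hsp90b1 (-1.03), Calr (-0.89), Pdia3 (-0.74), Pdia4 (-0.75), Pdia6 (-0.89), Dnajb9 (-0.78), Dnajc3 (-0.32), Sdf2l1 (-0.47), Cdnf (-0.40), Calr3 (-0.15), P4hb (-0.49), Vkorc1l1 (-0.56), Edem1 (-0.55), Sec61b (-0.63), Sec61g (-0.64), Tram1 (-0.62), Ost4 (-0.37), Dpagt1 (-0.61), Sec24d (-0.44), Mia3 (-0.44) and Tmem38b (-0.58). Between experiments, iHep-2 minus iHep-1, it turned Canx (0.040), Pdia6 (0.0045) and Dnajc3 (0.0030). The authors' series table gave a chaperone median of 0.22, and between experiments it turned Hspa5 (-0.057), Pdia4 (-0.013) and Dnajb9 (-0.028), whose sign the mean of all probes also turned (-0.012). Leaving out 1 array at a time gave a chaperone median of 0.19 to 0.30 and 0 genes called in both comparisons. The 3D minus 2D difference then ranged from -0.25 to 0.060 for Hspa5, from -0.13 to 0.27 for Hsp90b1 and from -0.051 to 0.47 for Calr. Hspa5 and Calr changed sign without the 2D array of iHep-2, and Hsp90b1 without the 3D array of iHep-1. The iHep-2 minus iHep-1 difference ranged from -0.047 to 0.25 for Hspa5, from -0.22 to 0.084 for Canx, from -0.065 to 0.33 for Pdia4, from -0.21 to 0.013 for Pdia6, from -0.074 to 0.31 for Dnajb9, from -0.57 to 0.36 for Dnajc3 and from -0.85 to 0.028 for Sdf2l1. The cause was not tested.

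With the replicate block, limma called 0 genes between cultures (smallest adjusted p 0.125, 2175 genes at an unadjusted p under 0.05), as without it (0.495 and 1159). Between the experiments 54 genes were called, against 305 with the block, 100 after normexp, 126 after quantile normalization, 403 after spike-in scaling, 136 in the authors' table, 31 with an intensity trend and robust prior, and 3 where a probe had to pass the background limit on each of the 4 arrays. The slide as a block was not run, as all arrays lay on 1 slide, and a count over both experiments has no value once an array is left out.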
